A study of Mus musculus with 6 samples.

Results

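The Ikaros family comprises 5 zinc finger transcription factors: Ikaros (Ikzf1), Helios (Ikzf2), Aiolos (Ikzf3), Eos (Ikzf4) and Pegasus (Ikzf5). The members were chosen by gene symbol, and all 5 were found among the 28430 symbols of the count table. Their expression comes from bulk RNA-Seq of hepatic CD4+ T cells that were sorted from mice. The dKO mice carried floxed alleles of both Nr4a1 and Nr4a2 (Nr4a1 fl/fl, Nr4a2 fl/fl) and Cre recombinase under the Cd4 promoter, which is active from thymic development and therefore also in the CD8 lineage. The WT mice are described only as WT, and whether they carried floxed alleles or Cre was not given in the sources used here. Both groups received a choline-deficient diet with 60 kcal% fat and 0.1% methionine, which induces metabolic dysfunction-associated steatohepatitis (MASH), and each group had 3 libraries (dKO 1 to dKO 3 and WT 1 to WT 3). The study's methods call them independent biological replicates, but age, sex and any pooling of animals for these libraries were not given in the sources used here.

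Ikaros family proteins bind DNA through a cluster of zinc fingers near the N-terminus and pair with one another through a second cluster at the C-terminus. Most members act with the NuRD chromatin remodelling and histone deacetylase complex, by which they can silence or maintain genes of lymphocyte development. In CD4+ T cells, Helios is known as a stabilising factor abundant in regulatory T cells (Tregs), Eos as a partner of Foxp3 in gene silencing, and Aiolos and Ikaros as regulators of effector differentiation that limit transcription of Il2. Pegasus is the most divergent member and is little studied in T cells.

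The coding sequences of the second zinc finger, counted from the N-terminus, were compared between the members. They were read from the longest protein-coding GENCODE M21 transcript of each gene (GRCm38) and run 5′ to 3′. Capitals mark the codons of the cysteines and histidines that hold the zinc ion.
Ikzf1: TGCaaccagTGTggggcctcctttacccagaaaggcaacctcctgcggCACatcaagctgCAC
Ikzf2: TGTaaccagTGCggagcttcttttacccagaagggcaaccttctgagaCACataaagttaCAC
Ikzf3: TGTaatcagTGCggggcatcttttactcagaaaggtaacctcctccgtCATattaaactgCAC
Ikzf4: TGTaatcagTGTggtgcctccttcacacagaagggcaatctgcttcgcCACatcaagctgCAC
Ikzf5: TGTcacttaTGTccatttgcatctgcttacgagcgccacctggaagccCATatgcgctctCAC
The finger covers 21 codons. Ikzf2, Ikzf3 and Ikzf4 encoded the same residue as Ikzf1 at all 21, although only 81.0%, 81.0% and 84.1% of their bases were identical to those of Ikzf1. Ikzf5 shared the residue at 5 of the 21 codons, with 41.3% identical bases. These 5 include the cysteines and histidines that the search for fingers required. Fingers were paired by their order alone, so this finger of Ikzf5 may not be the counterpart of that of Ikzf1. Coding sequences of Ikzf1 to Ikzf4 each held 6 fingers of this pattern, and that of Ikzf5 held 5.

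Those base differences bear on the counts, since reads from near-identical sequence could be given to the wrong gene. The longest run of identical bases between transcripts of any pair of members, on either strand, was 32, between Ikzf2 and Ikzf4, and the other pairs shared at most 26. In GENCODE M21 on GRCm38, Ikzf1 lies on the plus strand of chromosome 11 (11685003 to 11772926) and Ikzf3 on the minus strand of the same chromosome (98464902 to 98546031). Ikzf2 lies on the minus strand of chromosome 1 (69531214 to 69687245), Ikzf4 on that of chromosome 10 (128630843 to 128645991) and Ikzf5 on that of chromosome 7 (131388652 to 131410521). Values are reads summed over each whole gene, so isoforms of Ikaros and Helios, including short forms without DNA-binding fingers, are not separated.

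The libraries held 5747744 to 11078184 counted reads, and 15694 genes passed the filter on low counts. Levels are normalised CPM (counts per 1000000 counted reads, scaled between libraries), and means carry the SD over the 3 libraries of a group. Differences are given on the log2 scale, dKO over WT, ± SE, and their p-values from edgeR were adjusted over all genes tested. Of the deleted genes, Nr4a2 went against the labels. It was at 478, 541 and 392 CPM in dKO 1 to dKO 3, against 160, 286 and 235 CPM in WT 1 to WT 3 (1.05 ± 0.21, edgeR adjusted p = 0.0308). Its call was lost without WT 3, dKO 1 or dKO 2 (edgeR adjusted p = 0.0789 to 0.128). Nr4a1 did not pass (0.39 ± 0.37, edgeR adjusted p = 0.650). Nr4a3, which was not deleted, did not pass either (1.16 ± 0.37, edgeR adjusted p = 0.170), but was called higher without dKO 3 (0.00158). The sources used here do not say which exons were floxed, and a shortened transcript would still be counted. The groups are therefore called the libraries labelled dKO and those labelled WT. Of 6 tested T cell markers 0 were called, where 3.31% of all genes tested were. Their summed level was 3023 to 3137 CPM in the libraries labelled dKO, against 2870 to 3175 CPM in those labelled WT. Cd4 itself had 390 to 432 CPM in the libraries labelled dKO and 350 to 409 CPM in those labelled WT. Apart from Cd4, this list does not tell CD4+ from CD8 T cells, whose markers are given below.

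Helios and Eos were the members that rose in the libraries labelled dKO. Ikzf2, the gene of Helios, had 1256, 1045 and 1321 CPM in the libraries labelled dKO, against 363, 589 and 492 CPM in those labelled WT. The groups were far apart, since the lowest dKO library lay well above the highest WT library. Mean levels were 1207 ± 145 and 481 ± 113 CPM (SD, n = 3 each), a 2.51-fold difference with a 95% interval of 1.93 to 3.27 (1.33 ± 0.17, edgeR adjusted p = 0.00214). This log2 fold change exceeded that of 98.96% of all genes tested, and the gene was 46th by p. With 2630 to 11951 reads per library, counting error was small beside the spread between libraries.

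Ikzf4, which encodes Eos, was much less abundant, with 195 to 613 reads per library. It had 57.9, 58.9 and 67.8 CPM in the libraries labelled dKO, against 26.9, 37.9 and 32.9 CPM in those labelled WT. Again every library labelled dKO was above every one labelled WT. The means were 61.5 ± 5.45 and 32.6 ± 5.52 CPM (SD, n = 3 each), a 1.89-fold difference with an interval of 1.54 to 2.31 (0.92 ± 0.13, edgeR adjusted p = 0.00376). The order of the libraries labelled WT was the same in both genes, with WT 1 lowest and WT 2 highest, and dKO 3 was the highest of all libraries in both.

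Of the 5 members, 2 were thus called higher and 0 lower, where 2.15% of all genes tested were called higher and 1.17% lower. The median log2 fold change of the members was 0.34, against -0.01 over all genes tested. In bulk RNA, more cells of a type and more RNA per cell cannot be told apart.

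**Figure D1:**
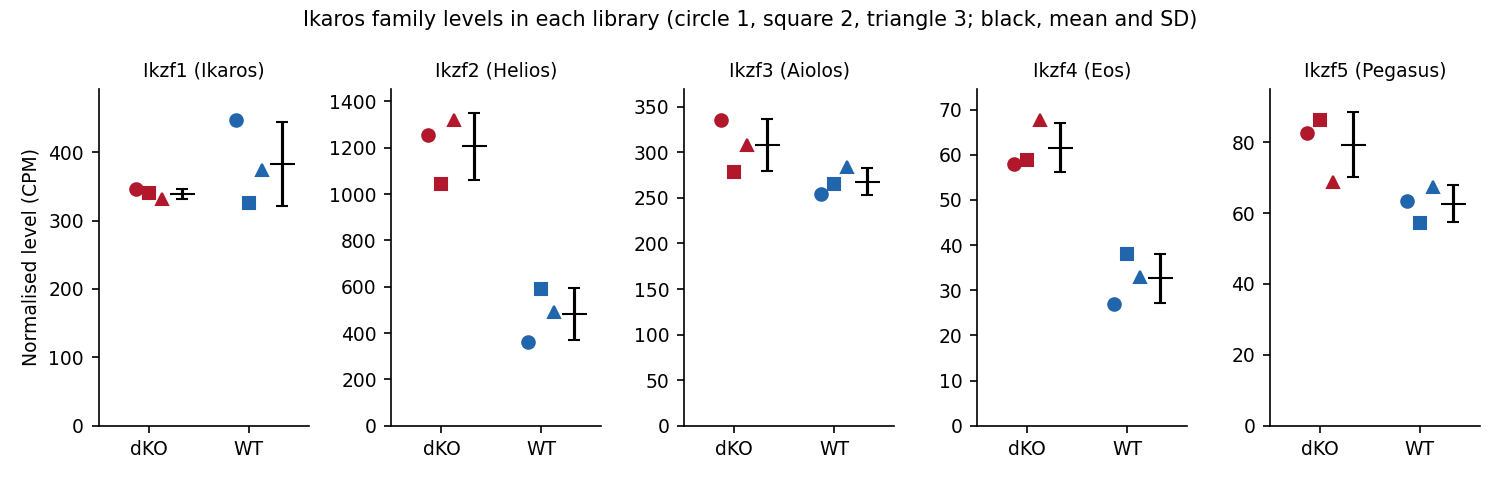
Normalised level (CPM, y axis from 0) of each Ikaros family gene in the 3 libraries labelled dKO (red) and the 3 labelled WT (blue), with symbols for replicates 1 to 3 and the mean ± SD in black. Ikzf2 and Ikzf4 separate the groups widely (1207 against 481 CPM and 61.5 against 32.6 CPM), whereas the groups overlap for Ikzf1 and Ikzf3.

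Ikaros and Aiolos, the members shared by most lymphocytes, did not pass the test. Ikzf1 had 346, 341 and 331 CPM in the libraries labelled dKO and 448, 326 and 373 CPM in those labelled WT. The groups overlapped, and the libraries labelled dKO were close together, with a coefficient of variation of 2.17% against 16.1% among those labelled WT. The difference was -0.17 ± 0.13 on the log2 scale, with an interval of -0.45 to 0.10 (edgeR adjusted p = 0.505), or 0.734-fold to 1.07-fold. WT 1 had the highest level of Ikzf1 and the lowest of Ikzf2 and Ikzf4 among the libraries labelled WT.

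Ikzf3 had 336, 279 and 308 CPM in the libraries labelled dKO and 255, 266 and 284 CPM in those labelled WT. WT 3 lay above dKO 2, so the groups overlapped here too. The log2 fold change was 0.20 ± 0.11 (interval -0.04 to 0.44, edgeR adjusted p = 0.357). Aiolos is also abundant in B cells, whose markers were scarce here. The 7 listed B cell markers summed to 5.18 to 10.5 CPM in the libraries labelled dKO and to 3.87 to 7.30 CPM in those labelled WT.

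Pegasus lay between. Ikzf5 had 82.7, 86.4 and 68.9 CPM in the libraries labelled dKO and 63.5, 57.2 and 67.5 CPM in those labelled WT. The groups did not overlap, but dKO 3 and WT 3 were nearly level. Ikzf2, Ikzf4 and Ikzf5 make 3 of 5 members with every library labelled dKO above every one labelled WT, as had 13.2% of all genes tested (25.0% did not overlap in either direction). Its log2 fold change was 0.34 ± 0.12 with an unadjusted interval of 0.08 to 0.59 (unadjusted p = 0.0133, edgeR adjusted p = 0.136). Exons of Pstk and Gm44624 overlap Ikzf5 on the opposite strand, those of Gm26876 overlap Ikzf4, and those of the antisense gene Gm29114 overlap Ikzf2. The library kit does not mark strand, so reads of such neighbours cannot be told apart where their exons overlap. The count table held no entry under the symbols Gm29114 and Gm44624, so their levels could not be given. Pstk was at 25.5 to 26.8 CPM in the libraries labelled dKO and 29.8 to 33.8 CPM in those labelled WT, and Gm26876 at 5.91 to 7.52 CPM and 6.07 to 6.94 CPM, and neither passed the test (-0.31 and 0.09 on the log2 scale, edgeR adjusted p = 0.172 and 0.862).

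**Figure D2:**
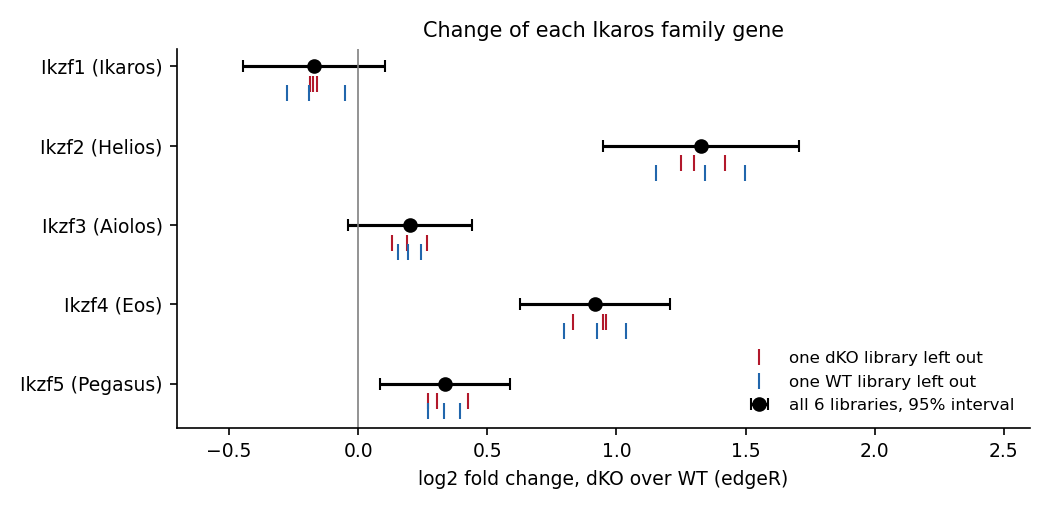
Log2 fold change (x axis, dKO over WT, edgeR) of each Ikaros family gene from all 6 libraries with its 95% interval (black), and after leaving out each dKO library (red ticks) or each WT library (blue ticks). Ikzf2 stayed between 1.15 and 1.5 and Ikzf4 between 0.80 and 1.04, and all estimates of Ikzf1 lay below 0, although its interval includes 0.

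The members' changes were then set against each other within each library, which removes library size. This comparison of 10 pairs was chosen after the values were seen, and the pairs share members. Reads of Ikzf2 per read of Ikzf4 numbered 21.7, 17.7 and 19.5 in the libraries labelled dKO, against 13.5, 15.5 and 14.9 in those labelled WT. Helios thus differed more than Eos in these libraries, by 0.42 on the log2 scale, without overlap between groups (two-sided exact permutation p = 0.1, adjusted p = 0.111 over 10 pairs). Against Ikaros the shift was larger, with 0.275, 0.326 and 0.251 reads of Ikzf1 per read of Ikzf2 in the libraries labelled dKO and 1.23, 0.554 and 0.760 in those labelled WT (-1.51, the same exact p values). For Ikzf3 over Ikzf5 the groups overlapped (-0.14, exact permutation p = 0.5). An exact permutation p of 0.1 is the smallest that 3 against 3 libraries can give, so none of these differences could pass.

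All 5 genes together had 2078, 1809.9 and 2097 CPM in the libraries labelled dKO and 1156, 1276 and 1249 CPM in those labelled WT. Nearly all of that difference was Helios. Without Ikzf2 the other members summed to 788 ± 30.2 CPM in the libraries labelled dKO and 746 ± 54.0 CPM in those labelled WT (SD, n = 3 each). The share of Helios in the family's reads was 60.4%, 57.7% and 63.0% in the libraries labelled dKO, against 31.4%, 46.2% and 39.4% in those labelled WT. The lowest bound of a 95% Wilson interval was 56.8% in the libraries labelled dKO, and the highest bound was 47.1% in those labelled WT (counting error only). Ikaros made up 15.8% to 18.8% of the family's reads in the libraries labelled dKO and 25.6% to 38.7% in those labelled WT.

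**Figure D3:**
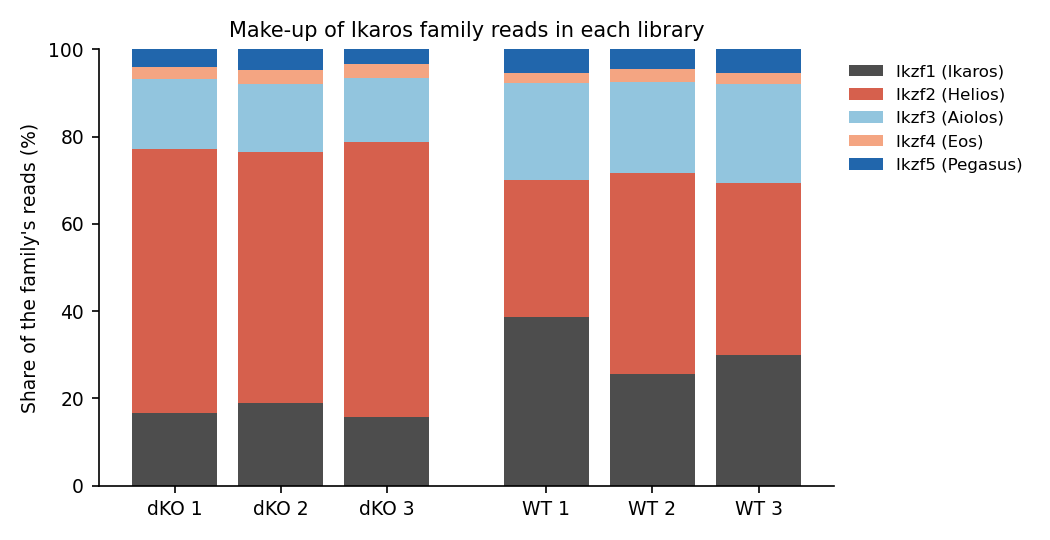
Share of all Ikaros family reads (%, y axis from 0 to 100) that each member took in each library, with the libraries labelled dKO on the left and those labelled WT on the right. Ikzf2 took 57.7% to 63.0% in the libraries labelled dKO and 31.4% to 46.2% in those labelled WT, and the share of Ikzf1 was 15.8% to 18.8% in the libraries labelled dKO and 25.6% to 38.7% in those labelled WT.

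Reads per gene depend on transcript length, so levels were compared between members per kb of the longest annotated transcript (3658 bases for Ikzf3 to 9278 bases for Ikzf2). On that scale Helios led in the libraries labelled dKO with 130.1 ± 15.6 CPM per kb, followed by Aiolos (84.1 ± 7.80) and Ikaros (65.7 ± 1.42; SD, n = 3). In the libraries labelled WT, Ikaros (74.1 ± 11.9 CPM per kb) and Aiolos (73.3 ± 4.02) did not differ beyond their spread, and Helios came next (51.9 ± 12.2). Pegasus (17.9 ± 2.08 in the libraries labelled dKO and 14.2 ± 1.17 in those labelled WT) and Eos (11.9 ± 1.06 and 6.33 ± 1.07) were lowest in both. The order of Helios, Aiolos and Ikaros depended on the length used. Per kb of coding sequence, Ikaros and Aiolos were at 219.6 ± 4.76 and 202 ± 18.8 CPM per kb in the libraries labelled dKO, and at 248 ± 39.8 and 176 ± 9.67 CPM per kb in those labelled WT. On the same scale Helios came first in the libraries labelled WT (305 ± 71.8 CPM per kb), but its spread overlapped that of Ikaros. In the libraries labelled dKO, Helios came first by either length. Its longest transcript is mainly non-coding, and how the cDNA was primed was not given in the sources used here.

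**Figure D4:**
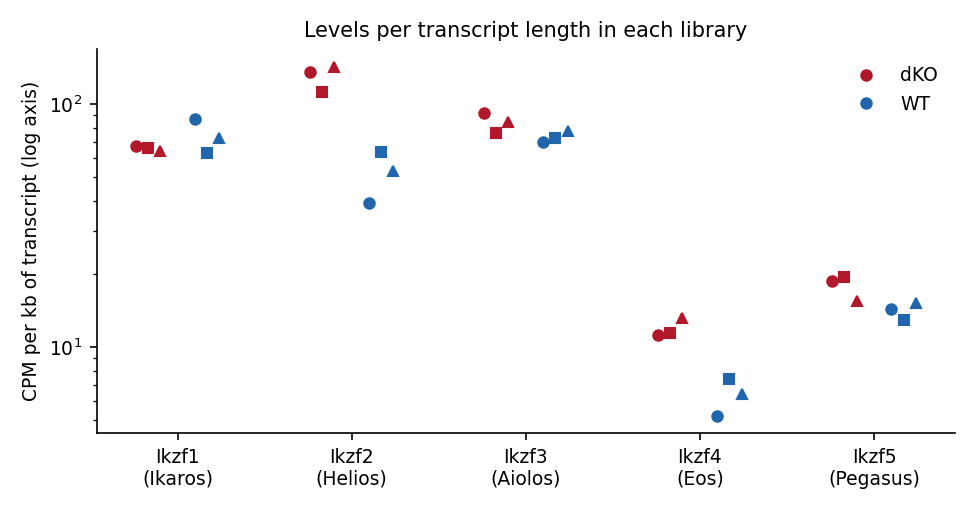
Level of each member per kb of its longest annotated transcript (CPM per kb, log axis) in the 3 libraries labelled dKO (red) and the 3 labelled WT (blue). Ikzf2 is above the other members in each library labelled dKO (113 to 142 CPM per kb), but below Ikzf3 in each library labelled WT (39.1 to 63.5 CPM per kb).

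Foxp3 defines the Treg lineage, in which Helios and Eos are abundant. It had 224, 186 and 173 CPM in the libraries labelled dKO, against 66.0, 110.1 and 85.2 CPM in those labelled WT (1.16 ± 0.18, edgeR adjusted p = 0.00954). Each library held 5.60, 5.61 and 7.63 reads of Ikzf2 per read of Foxp3 in dKO 1 to dKO 3, against 5.502, 5.35 and 5.77 in WT 1 to WT 3. The ratio thus overlapped between groups, and dKO 3 alone stood higher. The mean log2 ratio differed by 0.17 (2.64 ± 0.26 against 2.47 ± 0.06, SD, n = 3 each, two-sided exact permutation p = 0.4), and by 0.02 without dKO 3. For Eos the ratio was 0.258, 0.316 and 0.391 in the libraries labelled dKO and 0.408, 0.345 and 0.387 in those labelled WT, a log2 difference of -0.26 (exact permutation p = 0.3). With 3 libraries against 3 these p-values do not show that the ratios were alike. Of 8 listed Treg markers 5 were called higher and 0 lower (2.15% and 1.17% of all genes tested). Their summed level was 2664 to 3633 CPM in the libraries labelled dKO, against 1029 to 1568 CPM in those labelled WT. Ctla4 made up the largest part of that sum, with 1499 to 2314 CPM in the libraries labelled dKO and 445 to 717 CPM in those labelled WT. Nrp1, a surface receptor of thymus-derived Tregs, was among the markers not called. What part Treg content had in the rises of Ikzf2 and Ikzf4 was not tested.

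The genes whose pattern over the 6 libraries was most like each member were found by the root mean square (RMS) difference of log2 levels, each gene centred on its own mean, among 9519 genes with a mean of at least 10 CPM. Closest to Ikzf2 were Bicd1, a dynein adaptor gene (RMS 0.127), Vav2, a guanine nucleotide exchange factor gene (0.127), and Gbp3, an interferon-induced GTPase gene (0.136). Gbp3, for example, had 131, 108 and 107 CPM in the libraries labelled dKO and 36.9, 51.8 and 49.2 CPM in those labelled WT. Foxp3 was 12th in this order (0.173) and Ikzf4 33rd (0.237). Closest to Ikzf4 were Dst, a gene of a large cytoskeletal linker (0.0640), Kif5c, a kinesin heavy chain gene (0.0964), and Exoc6b, an exocyst subunit gene (0.124). Foxp3 was 106th from Ikzf4 and Ikzf2 126th. Ikzf1 was matched most closely by Ndufb3, Kti12 and Ccdc93 (0.0263 to 0.0399), Ikzf3 by Nmd3, Arfgef2 and Pttg1ip (0.0307 to 0.0363), and Ikzf5 by Sec61a2, Klhdc2 and Klhl24 (0.0233 to 0.0354). Members with a small change lay near the many genes that varied little, so these values are descriptions of 6 libraries.

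Chromatin partners of the family were compared next, although 3 libraries per group can miss small changes. Of 18 listed genes (subunits of NuRD, Sin3 and CtBP corepressors, and Smarca4) 1 rose and 0 fell, where 3.31% of all genes tested were called, and their median log2 fold change was -0.02. The gene called was Mbd2, whose product binds methylated DNA and defines one form of NuRD. It had 167, 143 and 141 CPM in the libraries labelled dKO, against 112, 99.9 and 117 CPM in those labelled WT (0.45 ± 0.11, edgeR adjusted p = 0.0430). Mbd3, which takes the place of Mbd2 in the other form of NuRD, had 69.8, 77.1 and 74.4 CPM in the libraries labelled dKO and 88.2, 91.4 and 85.8 CPM in those labelled WT (-0.26 ± 0.10, edgeR adjusted p = 0.160). These 2 subunits thus lay on opposite sides of 0, but only the value of Mbd2 passed. Each was without overlap between groups, as were 25.0% of all genes tested. Chd4, a NuRD ATPase, had 503, 532 and 527 CPM in the libraries labelled dKO and 469, 380 and 433 CPM in those labelled WT (0.29 ± 0.12, edgeR adjusted p = 0.203). Chd3, another listed NuRD subunit, had more reads than Chd4 in every library and leaned the other way. It had 876, 887 and 850 CPM in the libraries labelled dKO and 955, 905 and 929 CPM in those labelled WT (-0.09 ± 0.12, edgeR adjusted p = 0.717). Mta2 had a log2 fold change of -0.21 ± 0.10 (edgeR adjusted p = 0.255).

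Cereblon (Crbn) is the substrate receptor of a CUL4 ubiquitin ligase, and in human cells drugs of the thalidomide class direct this ligase to Ikaros and Aiolos. Of its 5 listed subunits 2 rose and 0 fell, where 2.15% of all genes tested were called higher and 1.17% lower (median log2 fold change 0.30, against -0.01 over all genes tested). Crbn had 164, 138 and 123 CPM in the libraries labelled dKO, against 93.5, 105 and 103 CPM in those labelled WT (0.49 ± 0.12, edgeR adjusted p = 0.0425). Ddb1, the adaptor that joins cereblon to the cullin, had 95.03, 112 and 101 CPM in the libraries labelled dKO and 75.8, 65.0 and 70.6 CPM in those labelled WT (0.54 ± 0.11, edgeR adjusted p = 0.0177). In both genes all libraries labelled dKO lay above all those labelled WT, as in 13.2% of all genes tested. Cul4b had 63.4, 62.3 and 61.8 CPM in the libraries labelled dKO and 50.4, 50.1 and 51.8 CPM in those labelled WT (0.30 ± 0.10, edgeR adjusted p = 0.110), while Cul4a (0.16 ± 0.13) and Rbx1 (0.10 ± 0.10) had adjusted p of 0.570 and 0.641 by edgeR. With 1 library left out the log2 fold changes stayed positive (0.38 to 0.58 for Crbn, 0.48 to 0.60 for Ddb1 and 0.38 to 0.50 for Mbd2), but several of the calls were lost. The call of Crbn was lost when WT 1, WT 2, WT 3, dKO 1 or dKO 2 was left out (edgeR adjusted p = 0.0547 to 0.1995), that of Ddb1 when WT 3, dKO 1 or dKO 2 was (0.0534 to 0.0933), and that of Mbd2 when WT 2, WT 3 or any library labelled dKO was (0.0659 to 0.2023). With the replicate number as a block Crbn and Mbd2 lost theirs as well (edgeR adjusted p = 0.0646 and 0.0532).

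**Figure D5:**
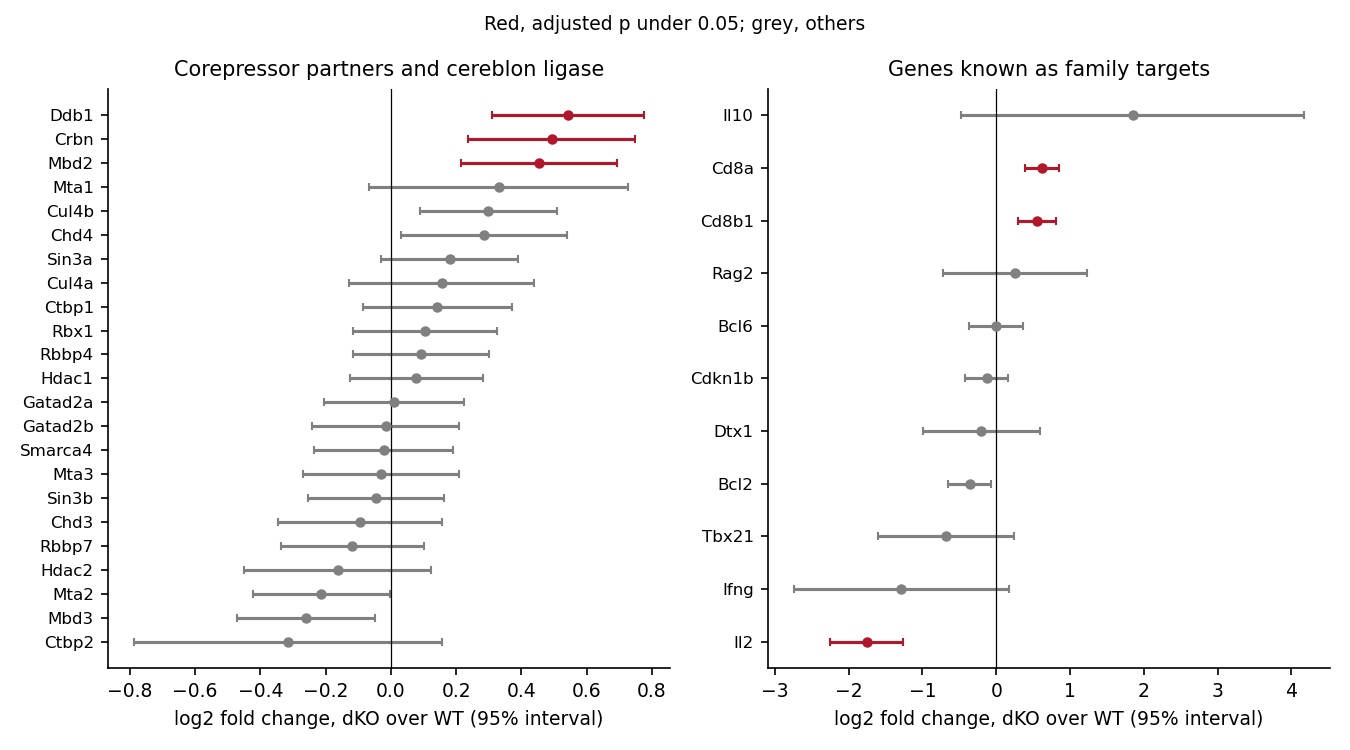
Log2 fold change (x axis, dKO over WT, 95% interval, edgeR) of the 23 partner and ligase genes (left) and of the 11 tested genes known as family targets (right), with genes of an adjusted p under 0.05 in red. Ddb1, Crbn and Mbd2 lie at 0.45 to 0.54 among partners that otherwise lie between -0.31 and 0.33, and Il2 lies at -1.75.

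Of 18 genes known from other work as targets of Ikaros family members, 11 were abundant enough to be tested, 2 rose and 1 fell, where 2.15% of all genes tested were called higher and 1.17% lower. Their median log2 fold change was -0.13, against -0.01 over all genes tested. The other 7 had too few reads or, for Igll1, no entry under that symbol, and they include Dntt, Rag1 and Ptcra, which belong to early lymphocyte development. Il2, a T cell growth factor gene, is known from other work to be limited by Ikaros and Aiolos. It had 4.47, 8.77 and 7.19 CPM in the libraries labelled dKO, against 19.1, 22.6 and 27.6 CPM in those labelled WT (-1.75 ± 0.23, edgeR adjusted p = 0.00187). What part Treg content or the levels of family members had in this difference of Il2 was not tested. Cd8a and Cd8b1, the CD8 coreceptor genes that Ikaros helps to activate in thymocytes, rose (0.62 ± 0.11 and 0.55 ± 0.12, edgeR adjusted p = 0.00866 and 0.0236). They are also the markers of CD8 T cells, and their summed level was 296 to 338 CPM in the libraries labelled dKO, against 199 to 237 CPM in those labelled WT. Whether such cells had a part in any result here was not tested. For Cd8b1 the call was lost if WT 3, dKO 1 or dKO 3 was left out (edgeR adjusted p = 0.0844 to 0.1091), and for Cd8a if dKO 1 was (0.0550). Without WT 1, Ifng and Tbx21, genes of the Th1 programme, were called lower (edgeR adjusted p = 0.00196 and 3.02e-04), against 0.308 and 0.393 with all libraries. Il10, an anti-inflammatory cytokine gene, had 236, 304 and 547 CPM in the libraries labelled dKO and 20.8, 168 and 113 CPM in those labelled WT (1.85 ± 0.86, edgeR adjusted p = 0.352). Bcl2, a survival gene, had a log2 fold change of -0.36 ± 0.14 (edgeR adjusted p = 0.165).

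Markers of several other cell types were low. The 9 macrophage markers summed to 2.99 to 5.54 CPM in the libraries labelled dKO and 4.003 to 9.42 CPM in those labelled WT. Of the 9 markers, 4 were at 0 in all libraries and only 2 were tested. Fcer1g was called lower, as were 1.17% of all genes tested, a call lost without dKO 1 or dKO 2 (edgeR adjusted p = 0.1103 and 0.0927). The other one tested, Cd68, had a log2 fold change of 0.34 ± 0.40 (edgeR adjusted p = 0.704). The 5 NK cell markers summed to 12.1 to 14.6 CPM in the libraries labelled dKO and 17.3 to 34.1 CPM in those labelled WT, with 0 of 2 tested called. The 7 hepatocyte markers summed to 5.06 to 7.52 CPM in the libraries labelled dKO and 3.73 to 6.57 CPM in those labelled WT. Of 6 dendritic cell markers 2, Xcr1 and Itgax, were called lower, where 1.17% of all genes tested were. Itgax had 1 read in each library labelled dKO. Another of the 6, Zbtb46, went the other way without being called (0.67 ± 0.21, edgeR adjusted p = 0.0963). The 6 markers summed to 96.9 to 129 CPM in the libraries labelled dKO and 115 to 149 CPM in those labelled WT, most of it Bst2. What part such cells had in the differences of Ikzf2 and Ikzf4 was not tested.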

How the data were processed

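The values tested were raw counts for each gene symbol, as deposited by the authors, who also provided a table named TPM. Its values are CPM as deposited by the authors: each library sums to 1000000 and no division by length is present. It was used in 1 alternative only. Libraries were made with a NEBNext Ultra II FS DNA kit, which does not mark strand, and sequenced single-end. The submitters' processing notes name cutadapt and Bowtie2 and the builds mm10 and GRCm39. Versions, read length, annotation and counting tool were not given in the sources used here.

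Genes were kept by filterByExpr (minimum count 10, minimum total count 15), scaled by TMM factors (trimmed mean of M values) and compared by edgeR 4.0.16 (quasi-likelihood F-test, robust, group as sole term) under R 4.3.3, with Benjamini-Hochberg adjustment over all 15694 genes and a threshold of 0.05. SE is the log2 fold change over the square root of F, and 95% intervals use the same spread. Replicates varied with a biological coefficient of variation of 14.5%. Ratios to Foxp3 used log2 of counts plus 0.5. No library pair of a group agreed within counting error (chi-square per degree of freedom 6.68 to 36.0). P-values cover only the spread among these libraries. The procedure was run on simulated counts with the same biological variation for every gene and no deviant library. That setting differs from these data, so it cannot show how the procedure behaves with the spread seen here.

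Alternatives were other scaling factors, no filter, DESeq2 1.42.0, limma 3.58.1 (voom, and log2(CPM + 1)), the replicate number as a block, and leaving out each library. The genes named are the 5 members, Nr4a1 to Nr4a3, Foxp3, called and role-bearing members of the partner, ligase and target lists, and the 3 genes most like each member. Pstk, Gm26876, Gm29114, Gm44624, Chd3, Cd4, Ctla4, Nrp1, Fcer1g, Cd68, Xcr1, Itgax, Zbtb46 and Bst2 were chosen with their values in view. The ratios between pairs of members were chosen in the same way. Members and lists were chosen with earlier results of these data known. Gene positions, lengths and sequences come from GENCODE M21 (GRCm38), since the count table holds no coordinates.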

Additional observations from a re-analysis of the deposited data

How the results depend on the processing

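Ikzf2 and Ikzf4 were called higher in each of 13 alternatives, and Ikzf1, Ikzf3 and Ikzf5 were called in none of their 13. No member changed direction. Without 1 library, the log2 fold change was 1.15 to 1.5 for Ikzf2, 0.80 to 1.04 for Ikzf4, 0.27 to 0.42 for Ikzf5, 0.13 to 0.27 for Ikzf3 and -0.28 to -0.05 for Ikzf1, with adjusted p by edgeR of up to 0.0204 for Ikzf2 and 0.0195 for Ikzf4. The ratios to Foxp3 moved between 0.02 and 0.24 for Ikzf2 and between -0.41 and -0.11 for Ikzf4.

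The replicate number as a block left Ikzf2 at 1.35 and Ikzf4 at 0.93 (edgeR adjusted p = 0.00549 and 0.00465), called 491 genes in place of 520, and called 1 of the 23 partner and ligase genes in place of 3. Libraries with the same number did not deviate together (correlations across genes of 0.05, 0.02 and -0.08), so the numbers were not taken as pairs. For the ratios to Foxp3 the paired exact sign-flip p was 0.25 for Ikzf2, the smallest it can be, and 0.5 for Ikzf4.

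The partner and ligase count was 1 with upper quartile factors and 0 to 2 without 1 library, and the target count was 1 to 5 without 1 library, against 3. All genes called numbered 1316 with no filter and 132 (without dKO 1) to 825 (without WT 1) with 1 library left out. The causes were not tested. With no filter, 17 listed targets were tested in place of 11, and 3 were called.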
